A study of Mus musculus with 22 samples.

Results

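Livers of male mice under calorie restriction (CR) were compared with livers of males fed ad libitum (AL) across the measured genes, outside the pathways of energy metabolism. The members are the libraries whose labels give the sex as male, 11 of the 22 in the series, of which 5 came from CR males and 6 from AL males, with 1 library per mouse. All were wild-type C57BL/6NCrl mice. The AL mice had free access to a control diet, and the CR mice were given 70% of what AL mice ate between the ages of 9 and 13 weeks, as a separate formulation meant to keep nutrients adequate at that amount. Per the study's methods the mice were housed singly and the CR ration was given in the morning while AL mice could eat at any time. Per the series' design text, both groups went without food for some hours before necropsy. The amount, timing and formulation of the food cannot be told apart. The 11 female libraries, 5 AL and 6 CR, entered the same fit and serve here for comparison with the male levels and effects.

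Mouse liver is among the most sexually dimorphic organs. Growth hormone reaches it in pulses in males and more evenly in females, and through the kinase JAK2 and the transcription factor STAT5B these patterns hold male-biased genes, such as those of the major urinary proteins (MUPs), on in males and female-biased genes, such as Cyp2b9 and the repressor gene Cux2, off. The liver also runs a circadian clock that feeding time can reset, makes and secretes most plasma proteins, synthesises cholesterol and bile acids, and clears foreign compounds.

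The 11 male libraries held 33648665 to 35230549 counted reads, recovered from the deposited values, and these correlated at r = 0.951 to 0.985 within a group on the log2 scale. After normalisation AL male replicate 4 had a total of 45375099, against 31858249 to 37688849 in the other males. It also had the highest median log2 difference from the AL male mean for ribosomal protein (0.53), Serpina (0.52) and complement and coagulation genes (0.39). In bulk tissue, fewer cells of a type and less RNA per cell cannot be told apart. All 10 hepatocyte markers were present, and 1 of them, Apoa1, was called. Pancreatic acinar transcripts varied widely between libraries of both groups, with the summed normalised counts of 31 genes running from 745 to 79543 in AL males and 315 to 98802 in CR males. None of the 30 acinar genes tested was called. Some libraries stood apart in parts of the transcriptome, namely CR male replicate 5 in sex-biased genes, CR male replicate 2 in cholesterol synthesis, AL male replicates 3 and 6 in Arntl and Dbp of the clock and AL male replicates 1 and 4 in interferon-stimulated genes, and their values are given beside those results. AL male replicate 6 and CR male replicate 5 are the only libraries that the labels name by a letter and not by a number, and the labels do not say whether this marks a batch.

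A gene was called when its fold change exceeded 1.5 and its adjusted p (limma on log2 of the normalised count + 1, Benjamini-Hochberg over 14035 genes) lay below 0.05. Fold changes are given as CR minus AL on that log2 scale with their standard errors, which understates the change of low genes. CR altered 1390 genes in males, 9.9% of those tested, of which 696 (4.96%) were higher and 694 (4.94%) lower. The CR and AL values did not overlap for 1302 genes, 9.28% of those tested, and for 811 of the genes called. The median log2 fold change over all genes was -0.0018, and calls in the 2 directions were almost equal in number. Shares of list members are set against these percentages below.

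**Figure D1:**
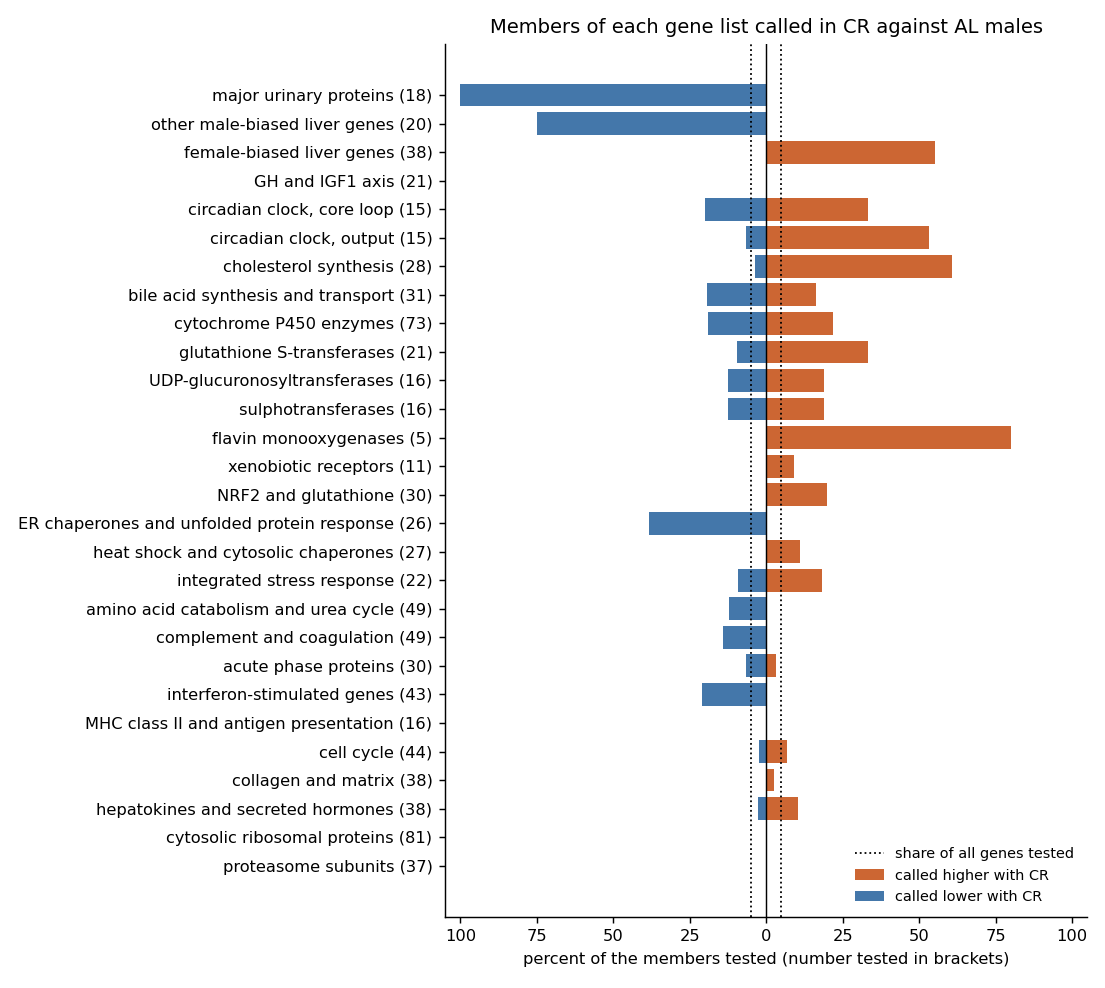
Percent of the tested members of each gene list called higher (right, orange) or lower (left, blue) in CR than in AL males, with the number tested in brackets; dotted lines mark the shares over all genes, 4.96% higher and 4.94% lower. All 18 MUP genes were lower and 21 of 38 female-biased genes were higher, while no ribosomal protein, proteasome or MHC class II gene was called.

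The MUPs are lipocalins that male livers secrete in large amounts and that carry pheromones in urine. All 18 MUP genes tested fell with CR, with a median log2 fold change of -3.49. The summed normalised counts of all 21 MUP genes in the table ranged from 1009917 to 2315772 in AL males and from 201363 to 565965 in CR males, without overlap. The family lies in a cluster on chromosome 4 and its members are so alike that reads can be split between them, so single MUP values are uncertain and the family sum is the firmer measure.

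Mup7 (chr4:60066469-60070475 in GRCm38.p6, the build of the deposited data) had 69197–317999 (median 182355) normalised counts in AL males. In CR males it had 656, 1789, 449, 1494 and 19561 in replicates 1 to 5. The groups did not overlap, CR male replicate 5 kept the highest value, and the log2 fold change was -6.57 ± 0.90 (adjusted p = 2.77e-05), or 94.9-fold lower. Mup7 and the 17 others were also called without CR male replicate 5.

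Mup15 fell by a similar amount, from 42526–162265 (median 99432) in AL males to 518, 1524, 386, 779 and 9060.4 in CR males (-6.33 ± 0.89, adjusted p = 3.74e-05). Mup17 (-6.19 ± 0.87), Mup12 (-4.67 ± 0.71), Mup1 (-4.33 ± 0.71), Mup11 (-3.54 ± 0.44) and Mup14 (-3.24 ± 0.45) followed. Mup3, chosen here after its values were seen because it changed least, still fell 2.36-fold (-1.24 ± 0.22, adjusted p = 0.000376), and CR male replicate 5, at 219964, lay inside the AL range of 200893–355501. Mup20, which encodes the pheromone darcin and was also chosen after its values were seen, had 153692–242027 (median 231616) in AL males and 21364, 6781, 10915, 49571 and 108927 in CR males (-3.13 ± 0.44, adjusted p = 3.64e-05). Several MUP genes also fell with CR in females. There Mup14 changed by -2.25 ± 0.45 (adjusted p = 0.00198), Mup3 by -1.20 ± 0.22 (adjusted p = 0.000951) and Mup20 by -1.54 ± 0.44 (adjusted p = 0.0294). Mup1, Mup11, Mup12 and Mup17 passed there as well, and Mup7 (adjusted p = 0.0843) and Mup15 (adjusted p = 0.0838) did not. The difference between the male and female CR effects passed for none of these genes (adjusted p = 0.355 to 0.997).

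The promoters show how close the family is. Of the 18 genes, 12 could be matched to a RefSeq promoter window (GRCm38.p6, 250 bases before the annotated start), and their 66 pairs shared at least 82.4% of aligned bases, with a median of 95.7%. Mup7 and Mup11 are printed below because both belong to the genes that fell (-6.57 ± 0.90 and -3.54 ± 0.44, a difference that was not tested) and 142 of 144 aligned bases are the same (98.6%), with capitals for the longest run that both share, 66 bases.
Mup7 (chr4:60070476-60070725, reverse strand): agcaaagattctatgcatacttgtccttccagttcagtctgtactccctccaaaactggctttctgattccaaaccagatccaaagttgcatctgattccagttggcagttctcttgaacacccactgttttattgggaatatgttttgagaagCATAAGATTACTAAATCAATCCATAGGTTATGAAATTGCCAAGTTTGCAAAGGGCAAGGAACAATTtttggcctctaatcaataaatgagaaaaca
Mup11 (chr4:60662396-60662645, reverse strand): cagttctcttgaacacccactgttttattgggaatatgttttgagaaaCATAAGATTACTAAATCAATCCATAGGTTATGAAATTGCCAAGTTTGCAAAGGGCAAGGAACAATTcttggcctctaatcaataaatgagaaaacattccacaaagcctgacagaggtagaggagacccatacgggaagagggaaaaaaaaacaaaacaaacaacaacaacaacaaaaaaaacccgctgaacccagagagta
The shared run sits nearer to the start of Mup7 than of Mup11, since the annotated starts differ. The STAT5 motif TTCNNNGAA, searched on both strands, matched none of the 12 MUP windows, 3 of 13 windows of other male-biased genes (0 of the 9 called) and 5 of 29 of female-biased genes (4 of the 17 called), against 9.55% of all 27025 genes with a window.

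Of 20 other genes known to be male-biased in liver, 15 (75%) fell and none rose, with a median log2 fold change of -2.02. Cyp7b1, an oxysterol and steroid 7α-hydroxylase, had the smallest adjusted p of the list. It had 3213–6017 (median 4907) normalised counts in AL males and 944, 883, 1360.2, 1184 and 1564 in CR males, and it fell 4-fold (SE 0.22 on the log2 scale, adjusted p = 1.48e-06). The groups did not overlap. Without CR male replicate 5, 16 of the 20 genes were called.

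Elovl3, a fatty acid elongase, fell from 4344–16513 (median 11306) to 114, 90.5, 129.9, 231 and 357 (-5.85 ± 0.77, adjusted p = 1.69e-05). Hsd3b5, a 3-ketosteroid reductase of male liver, had 3514–9093 (median 5834) in AL males. CR male replicates 1 to 4 lay far below, between 84.2 and 204, and replicate 5 lay just under the AL range at 3057 (-4.47 ± 0.96, adjusted p = 0.0022).

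Cyp4a12a, which makes the vasoconstrictor 20-HETE, showed the same split among CR libraries, with 302, 73.3, 306, 1267 and 4208 against 7820.1–14636 (median 10561) in AL males (-4.33 ± 0.73, adjusted p = 0.000235). Its neighbour Cyp4a12b changed by -4.32 ± 0.73, and reads may be shared between the pair. Selenbp2, a selenium-binding protein, went from 2168–8772 to 753–1705 (-2.32 ± 0.29), and there replicate 5 was the lowest of the CR males.

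The rule for the largest changes also named genes outside the list. Pitx3, a homeobox transcription factor gene best known from lens and midbrain, had 50 to 326 (median 209) in AL males and 2.93, 0, 2.05, 1.83 and 2.03 in CR males, a few reads at most (-5.94 ± 0.56, adjusted p = 3.84e-07). Its annotated span on chromosome 19 overlaps that of Elovl3, which was far higher in AL males and fell as well, so reads of Elovl3 can have been counted for Pitx3. Obp2a, an odorant-binding lipocalin, had 22.6–114 and 0–4.09 (-4.13 ± 0.48). The pseudogene Mup-ps8 fell with the MUP genes whose sequence it resembles (-4.24 ± 0.51).

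Female-biased genes moved in the other direction. Of 38 tested, 21 (55.3%) rose with CR in males and none fell, with a median log2 fold change of 1.31. Cux2, the female-biased repressor that binds many male-biased genes, had 12.7–130.4 (median 18.6) normalised counts in AL males and 483, 987, 632, 694 and 641 in CR males (4.65 ± 0.51, adjusted p = 2.10e-06). Female livers had 1045 ± 591 (SD, n = 5) with AL and 1472 ± 863 (n = 6) with CR, and the CR males lay within the range of the 11 female libraries.

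Slc22a27, an organic anion transporter gene, was almost silent in AL males at 2.93–22.6 (median 17.5). It reached 356, 716, 554, 273.7 and 72.9 in CR males (4.47 ± 0.46, adjusted p = 9.62e-07). CR male replicate 5 had the lowest value, as it did for Cyp2b9, Trim24, Cyp17a1, Cyp2a4 and Fmo2. Without it, 22 of the 38 female-biased genes were called.

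Trim24, a nuclear receptor co-regulator, rose 2.69-fold from 263–445 to 707–1294 (1.43 ± 0.15). Lepr, the leptin receptor, whose liver transcripts include the form that yields soluble receptor, rose from 81.6–261 (median 211) to 2369, 1294, 819, 2398 and 1358 (3.15 ± 0.43, adjusted p = 2.50e-05), and AL females had 2233 ± 1718 (SD, n = 5).

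**Figure D2:**
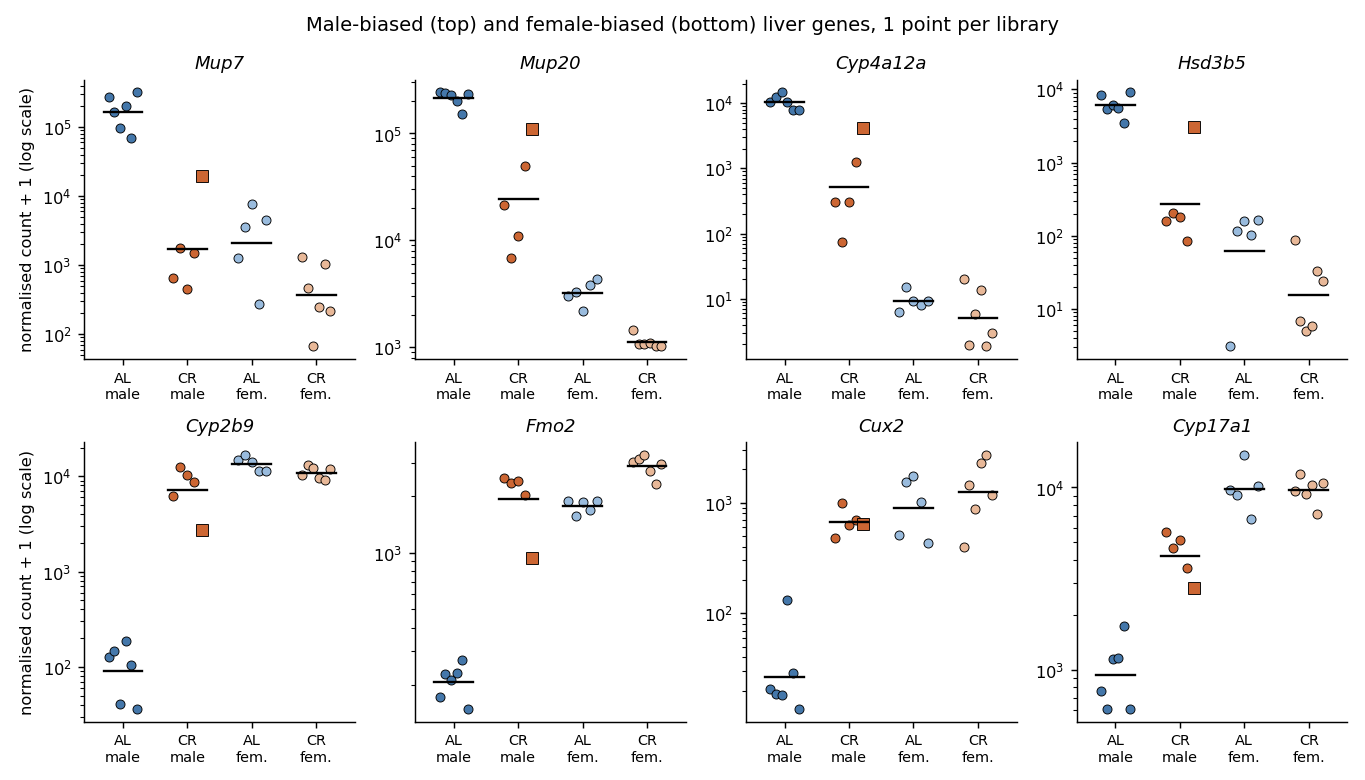
Normalised counts + 1 (log scale) of 4 male-biased genes (top) and 4 female-biased genes (bottom) in every library of the 4 groups; horizontal lines are geometric means of the values + 1, and the square is CR male replicate 5. CR male values lie between AL males and females for Mup20, Cyp4a12a and Cyp17a1, with replicate 5 nearest to AL males in 7 of the 8 genes.

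Genes of the growth hormone (GH) pathway itself did not pass the test. None of 21 genes of the GH and IGF1 axis was called, and their median log2 fold change was 0.15. Ghr, the GH receptor, had 9975–12751 (median 11630.0) in AL and 8605, 9942, 11280.5, 10242 and 9644 in CR males (-0.21 ± 0.10, adjusted p = 0.13). Stat5b had 903–1513 and 903–1122 (-0.38 ± 0.14, adjusted p = 0.0698).

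Socs2 and Cish, feedback inhibitors that a GH pulse induces quickly, were spread widely in both groups. Socs2 had 189.8, 150.1, 706, 479, 136 and 380.4 in AL replicates 1 to 6 and 1987, 206, 247, 1873 and 719 in CR males (1.25 ± 0.57, adjusted p = 0.138). Cish ranged over 59.4–1159 and 86.1–2027, and its highest AL value belonged to replicate 3 (adjusted p = 0.326). The repressor Bcl6, which opposes STAT5B at female-biased genes, gave -0.22 ± 0.51 (adjusted p = 0.818), the growth factor Igf1 -0.08 ± 0.17 (adjusted p = 0.808) and its binding protein Igfbp1 0.59 ± 0.62 (adjusted p = 0.565). Without CR male replicate 2, and by DESeq2, Socs2 passed the threshold.

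Whether CR acted differently in males and females was tested as the difference of the 2 CR effects. It passed an adjusted p of 0.05 in 34 genes, 0.242% of those tested, with a higher effect in males for 14 and a lower one for 20, and in 18 genes without AL male replicates 3 and 6. The 6 with the smallest adjusted p were Cyp2b9 (6.62 ± 0.53), Fmo2 (2.51 ± 0.27), Cyp2c38 (2.36 ± 0.34), Pitx3 (-5.51 ± 0.80), Mup-ps8 (-4.74 ± 0.72) and Trim24 (1.40 ± 0.21). Pitx3, which overlaps Elovl3, was at 0 to 3.95 in the 11 female libraries, a few reads at most, so that no fall of the male size could be seen there, and it no longer passed with a pseudocount of 0.25 in place of 1. Cyp17a1, the steroid 17α-hydroxylase, also passed, and CR males had 5673, 4652, 5122, 3593 and 2791 against 607–1728 (median 952) in AL males, while AL females had 10128 ± 3060.5 (SD, n = 5) and CR females 9793 ± 1578 (n = 6). The effect was 2.19 ± 0.25 in males and -0.02 ± 0.25 in females, and the difference was 2.20 ± 0.35 (adjusted p = 0.00372).

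Slco1a4, an organic anion and bile acid uptake transporter, differed likewise (males 1.59 ± 0.20, females -0.10 ± 0.20, difference 1.69 ± 0.28, adjusted p = 0.006). Selenbp2 changed by -2.32 ± 0.29 in males and 0.21 ± 0.29 in females (difference -2.53 ± 0.42, adjusted p = 0.00527). Obp2a also passed, but it was at 0 to 1.04 in the female libraries, where it could not fall further, so its difference restates the male fall. Cux2 (4.19 ± 0.73, adjusted p = 0.00779) and Slc22a27 (3.17 ± 0.65, adjusted p = 0.0319) rose more in males. Slc22a27 lost this call with the replicate block, without AL male replicate 1, without AL male replicates 3 and 6 and without any 1 of CR male replicates 1 to 4.

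Some female-biased genes responded to CR in females and stayed near 0 in males. They were hydroxysteroid sulphotransferase genes of the Sult2a family, chosen here after their values were seen. Sult2a1 had 5.45, 20.6, 1.02, 23.2, 0.958 and 0 normalised counts in AL males and 0.975, 0, 1.02, 0 and 0 in CR males, whereas AL females had 277 ± 198 (SD, n = 5) and CR females 2171 ± 1322 (n = 6), a rise of 3.20 ± 0.81 (adjusted p = 0.0139). Sult2a2 had 61.6–646 in AL and 854–2901 in CR females, Sult2a3 0–26.0 and 54.6–370, and Sult2a5 23.9–129 and 199.7–977, whereas Sult2a2 and Sult2a5 were at no more than 2.03 in CR males and Sult2a3 at 0 in all 5. These paralogs can share reads, and they were kept among the tested genes only through their levels in females. With the male values at a few reads, a test of the difference between the sexes says no more than the female values do.

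The circadian clock is a loop in which ARNTL (BMAL1) pairs with CLOCK or NPAS2 to switch on Per, Cry, Nr1d and Dbp genes, whose products then act back on it. Of 15 core clock genes, 5 rose and 3 fell with CR in males (53.3% called), and of 15 output genes 8 rose and 1 fell (60%). CR and AL mice ate at different times by design, so restriction and feeding time cannot be told apart in these genes. The activators fell together. Arntl had 341, 324, 71.4, 395, 480.1 and 133 normalised counts in AL replicates 1 to 6 and 58.5, 31.5, 25.6, 27.5 and 36.5 in CR males (-2.78 ± 0.47, adjusted p = 0.000264). AL replicates 3 and 6 lay nearest to the CR males, although the groups did not overlap.

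Npas2 fell further, from 34.7–183.3 (median 102) to 2.93, 12.2, 7.16, 2.75 and 8.10 (-3.66 ± 0.61, adjusted p = 0.000198). Clock fell 2.22-fold, from 624–1177 to 301–537 (-1.15 ± 0.21). Some of the repressors rose, with Per2 at 99.4–512 (median 243) in AL and 1385, 1621, 1234, 1529 and 795 in CR males (2.34 ± 0.35, adjusted p = 6.49e-05).

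Per3 went from 20.7–395 to 483–1296 (2.98 ± 0.67), and Cry1 rose 1.88-fold (0.91 ± 0.21). Nr1d2, which encodes the repressor REV-ERBβ, rose as well (0.96 ± 0.25). Per1 (0.43 ± 0.23, adjusted p = 0.215) and Nr1d1, the REV-ERBα repressor (-0.81 ± 0.39, adjusted p = 0.157), were not called, although Nr1d1 passed in the fit of the 11 male libraries alone and by DESeq2.

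Dbp, a transcription factor gene driven directly by the clock, shows the spread among AL males best. It had 302, 1289, 3168, 182, 73.8 and 2735 in AL replicates 1 to 6 and 2308, 2833, 3915, 2436 and 4314 in CR males, so that replicates 3 and 6 lay within the CR range (2.35 ± 0.93, adjusted p = 0.0821). Without AL replicate 3, without AL replicate 6 or without both, Dbp was called.

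Among the outputs, Nampt, the rate-limiting enzyme of NAD salvage, rose from 616–1365 (median 931) to 2769, 2506, 2738, 3117 and 2513 (1.59 ± 0.15, adjusted p = 3.30e-07). Wee1, the kinase that holds back entry into mitosis, rose 10.8-fold (3.44 ± 0.41). Por, the electron donor of all microsomal cytochrome P450 enzymes, rose from 8035–13022 to 36515, 13543, 27516, 36022 and 36456 (1.54 ± 0.21), with CR male replicate 2 far below the other CR males. The tetraspanin gene Tspan4 (1.23 ± 0.19) and Tef, a relative of Dbp (1.53 ± 0.32), rose as well, Lonrf3 rose close to the threshold (1.38 ± 0.43, adjusted p = 0.0302, lost without any 1 of 5 libraries), and Leo1, part of the PAF1 transcription elongation complex, fell (-0.86 ± 0.15, adjusted p = 0.000367).

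Cdkn1a encodes the cell cycle inhibitor p21 and is a known target of the repressor NR1D1. It had 1531, 1207, 310.2, 1918, 2908 and 167 in AL males and 132, 59.0, 129, 124 and 72.9 in CR males, with AL replicates 3 and 6 the lowest of their group (-3.19 ± 0.65, adjusted p = 0.00153).

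**Figure D3:**
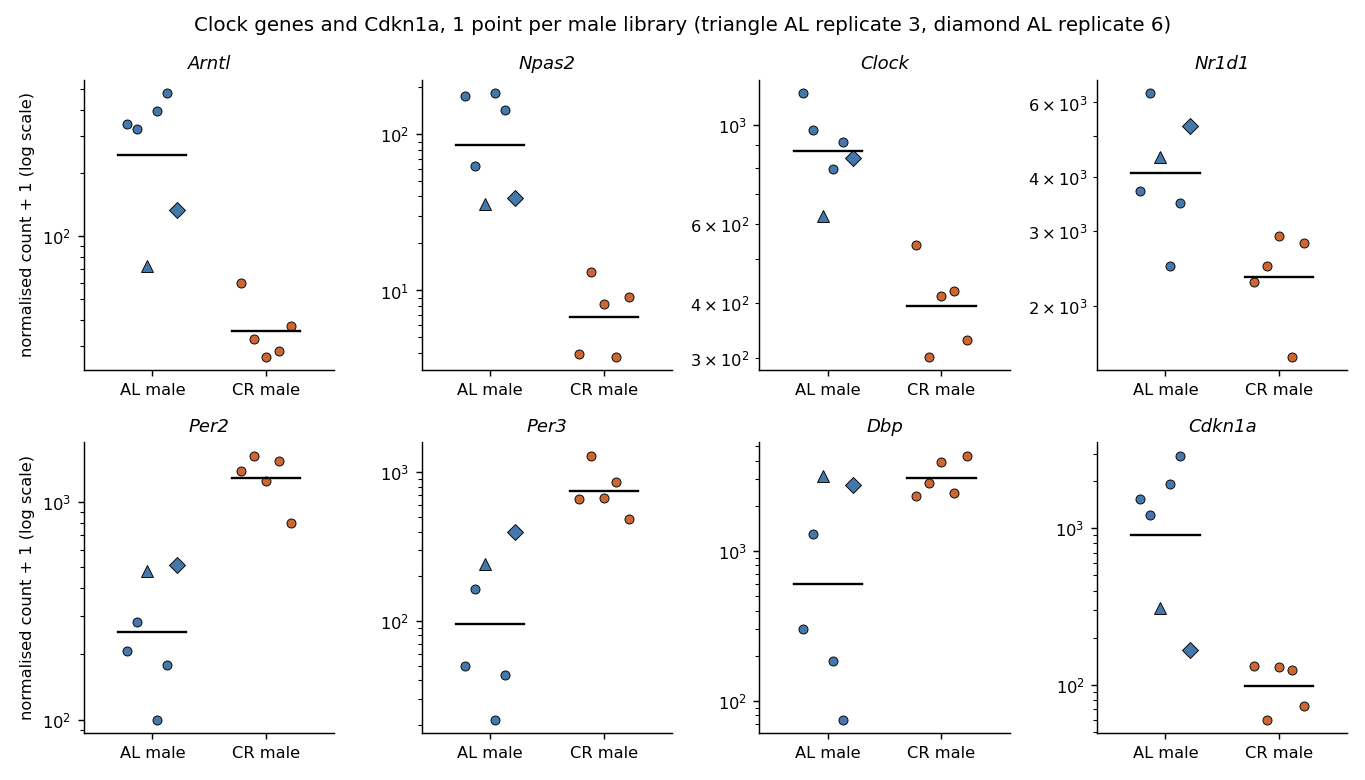
Normalised counts + 1 (log scale) of 7 clock genes and Cdkn1a in each AL and CR male library; lines are geometric means of the values + 1, the triangle is AL replicate 3 and the diamond AL replicate 6. In Arntl, Npas2, Per2, Per3, Dbp and Cdkn1a both marked libraries lie on the CR side of the AL mean, and Dbp overlaps between the groups.

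The promoter stretches of 4 called clock genes carry textbook clock motifs, shown in capitals. They are the E-box CACGTG bound by CLOCK and ARNTL in Cry1 and Tspan4, the D-box TTATGTAA bound by DBP and TEF in Per3, and the REV-ERB response element ANTAGGTCA in Leo1, the gene that fell.
Cry1 (chr10:85185055-85185204, reverse strand): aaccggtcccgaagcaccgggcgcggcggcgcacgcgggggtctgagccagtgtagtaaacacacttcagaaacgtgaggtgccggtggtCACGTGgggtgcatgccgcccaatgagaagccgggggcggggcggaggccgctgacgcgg
Tspan4 (chr7:141476230-141476379, forward strand): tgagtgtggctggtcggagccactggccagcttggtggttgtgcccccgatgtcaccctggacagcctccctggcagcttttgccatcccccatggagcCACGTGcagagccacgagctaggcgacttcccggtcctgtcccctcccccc
Per3 (chr4:151044666-151044875, reverse strand): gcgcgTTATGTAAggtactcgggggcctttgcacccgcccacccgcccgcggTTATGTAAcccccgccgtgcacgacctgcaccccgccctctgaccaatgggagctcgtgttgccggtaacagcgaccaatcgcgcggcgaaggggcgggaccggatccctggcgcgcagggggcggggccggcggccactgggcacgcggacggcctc
Leo1 (chr9:75441374-75441523, forward strand): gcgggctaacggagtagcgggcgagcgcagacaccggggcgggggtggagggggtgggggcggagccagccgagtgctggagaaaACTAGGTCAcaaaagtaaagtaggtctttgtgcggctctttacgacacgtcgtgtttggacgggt
Both strands were searched in windows from 250 bases before to 50 after each RefSeq start. An E-box was found in 2 of 11 core and 5 of 13 output genes with a window, against 8.09% of all genes. A D-box (TTATGTAA or TTACGTAA) was found in 1 and 0 of them, against 1.23%, and a REV-ERB element (ANTAGGTCA or ANTGGGTCA) in 1 and 2, against 1.63%. Arntl holds its REV-ERB element 28 bases after the start. Of the 3 genes with a REV-ERB element, Arntl and Leo1 fell and Nfil3 was not called.

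Cholesterol synthesis runs from acetyl-CoA through HMG-CoA and squalene, and SREBP2 drives its genes when sterols are low. Of 28 genes, 17 rose and 1 fell with CR in males (64.3% called), with a median log2 fold change of 0.98. Sqle, squalene epoxidase, had 89.3–158 (median 118) normalised counts in AL males and 339.3, 2196, 484, 248 and 273.5 in CR males (2.04 ± 0.40, adjusted p = 0.00094). All 5 CR males lay above all AL males, and CR male replicate 2 was by far the highest of the group.

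Idi1, which isomerises isopentenyl diphosphate, rose 5.61-fold (2.49 ± 0.34, adjusted p = 2.87e-05). Fdft1, squalene synthase, rose from 1242–1948 (median 1367) to 3580.3, 5065, 3632, 2899 and 4405 (1.40 ± 0.17, adjusted p = 5.60e-06), and Cyp51, lanosterol demethylase, from 423–865 to 983–3854 (1.72 ± 0.25).

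The gene that fell was Insig2, which encodes an ER anchor that keeps SREBP from activation and which insulin represses. It had 5354–10616 (median 6803) in AL males and 2076, 1116, 1442, 1648 and 2006 in CR males (-2.16 ± 0.30, adjusted p = 3.01e-05). Hmgcs1, chosen here after its values were seen, was highest in CR male replicate 2, at 6181 against 1271–1759 in AL males, with replicate 3 also above that range and the other 3 CR males within or below it, and was not called (0.27 ± 0.29, adjusted p = 0.57). It was also the 1 of 20 members with a window to hold the sterol element TCACCCCAC, a motif chosen after the values were seen and present in 0.614% of all genes. Without CR male replicate 2, 16 members of the list were called, against 18 with it.

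In bile acid synthesis and transport, 5 of 31 genes rose and 6 fell (35.5% called). Hsd3b7, the 3β-hydroxy-C27-steroid dehydrogenase of both main routes, had the smallest adjusted p of the list. It had 15732–17037 (median 16455) normalised counts in AL males and 3199, 5564, 3779.9, 4006 and 3582 in CR males (-2.05 ± 0.14, adjusted p = 3.84e-09), and every CR male lay well below every AL male. Cyp8b1, the 12α-hydroxylase that directs synthesis to cholic acid, had 11707–19176 (median 15637) and 1251, 11429, 1201, 1589 and 633, where CR male replicate 2 came close to the AL range (-3.13 ± 0.46, adjusted p = 6.70e-05). Acox2, which shortens the side chain in peroxisomes, fell 2.42-fold (-1.28 ± 0.16).

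Cyp7a1, the rate-limiting enzyme, had 169–1558 in AL and 187.4–2325 in CR males and was not called (0.23 ± 0.63, adjusted p = 0.849). Nr0b2, the repressor SHP, fell from 2324–4158 (median 3306) to 795, 2084, 1796, 383 and 1943 (-1.44 ± 0.39, adjusted p = 0.0136). Among the genes that rose were Akr1d1, the 5β-reductase (0.76 ± 0.17), Cyp39a1, which hydroxylates 24-hydroxycholesterol (1.33 ± 0.29), and Slc51b, a subunit of the basolateral exporter OSTα/β, which went from 2.93–13.3 to 27.5–57.7 (2.55 ± 0.41).

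Enzymes of drug and steroid metabolism moved in both directions. Of 73 cytochrome P450 genes 16 rose and 14 fell (41.1% called), with a median log2 fold change of -0.09. Cyp2b9 (chr7:26173350-26210661), a female-specific steroid hydroxylase, had 35.1–185.9 (median 116) in AL males and 6249, 12427, 10408, 8726 and 2727 in CR males, the largest rise among the genes named here (6.32 ± 0.37, adjusted p = 3.38e-10). Its neighbour Cyp2b10, the standard target of the receptor CAR, had 0–7.67 and 2.03–9.15 (0.88 ± 0.58, adjusted p = 0.324), and Nr1i3, the gene of CAR, gave -0.11 ± 0.17 (adjusted p = 0.717). Cyp2b10 was at a few reads in males and was kept among the tested genes only through its levels in females. Its test in males therefore says little, and a part of CAR was not tested.

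Cyp2a4, the female-biased testosterone 15α-hydroxylase, rose from 259–658 (median 580.4) to 3306, 4034, 2242, 9818 and 1447 (2.73 ± 0.38, adjusted p = 2.91e-05). Cyp2c38 rose 4.81-fold, from 479–1373 to 3676–6021 (2.27 ± 0.24). Cyp4v3, a fatty acid ω-hydroxylase, fell 1.78-fold with no overlap (-0.83 ± 0.11, adjusted p = 1.34e-05). Genes of the Cyp2a, Cyp2b, Cyp2c and Cyp4a families are close paralogs, and reads may be split among them.

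Conjugating enzymes showed the same mixture. Of 21 glutathione S-transferase genes 7 rose and 2 fell (42.9% called). Gstp1, a male-biased member, had 43043–131339 (median 95971) in AL and 35225, 23183, 20787, 44489 and 56012 in CR males (-1.39 ± 0.25, adjusted p = 0.000512), and its near copy Gstp2 changed alike (-1.36 ± 0.25). Gstt3 rose from 820.1–2127 to 2653–4814 (1.45 ± 0.22), and Gstm3 rose to 1468, 4322, 2568, 9006 and 1257, with replicate 4 highest (2.30 ± 0.38). Gstt2 (0.91 ± 0.16) and the microsomal Mgst3 (1.38 ± 0.29) also rose.

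Of 5 flavin monooxygenase genes 4 rose and none fell, and Fmo2 had the smallest adjusted p, with 147–270.3 (median 218) in AL males and 2480.4, 2332, 2391, 2025 and 933 in CR males (3.22 ± 0.19, adjusted p = 3.38e-10). Of 16 UDP-glucuronosyltransferase genes 3 rose and 2 fell, among them the male-biased Ugt2b1 (-1.03 ± 0.14), and of 16 sulphotransferase genes 3 rose and 2 fell. The share called was 31.25% in each of these lists, against 9.9% over all genes. Of 11 xenobiotic receptor genes only Pparg was called (0.66 ± 0.23, adjusted p = 0.0454), and that call was lost without any 1 of 7 of the 11 male libraries. Carboxylesterase genes gave 3 rises and 3 falls among 14 (42.9% called), and the Slc22 and Slco transporters 4 and 4 among 22 (36.4%). Of 30 genes of the NRF2 and glutathione list 6 rose (20%), without the classic target Nqo1 (0.74 ± 0.34, adjusted p = 0.138), which was called only when CR male replicate 5 was left out, alone or with another library, or by DESeq2.

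Chaperones of the endoplasmic reticulum (ER) fold the secreted and membrane proteins, and the unfolded protein response raises them when the load grows. Of 26 genes of this list 10 (38.5%) fell with CR in males and none rose, with a median log2 fold change of -0.27. Hspa5, the master chaperone BiP, had 11622–22679 (median 17911) normalised counts in AL males and 6428, 12136, 8718, 7924 and 10811 in CR males (-0.90 ± 0.21, adjusted p = 0.00495). AL male replicate 4 lay within the CR range. Syvn1, the ubiquitin ligase that removes misfolded ER proteins, had 2683–5506 (median 4147) and 1889.6, 2364, 1652, 1797 and 2378, without overlap (-0.97 ± 0.19, adjusted p = 0.00116).

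Sdf2l1, a BiP co-factor, fell 3.08-fold (-1.62 ± 0.33, adjusted p = 0.00154), and its lowest AL value, 263 in replicate 6, lay below the highest CR value of 270.0. Creld2, a disulphide-handling protein, fell from 598–1795 (median 1312) to 419, 338, 371, 372 and 500.4 (-1.52 ± 0.32, adjusted p = 0.00175). Pdia4, a disulphide isomerase, fell 1.62-fold (-0.69 ± 0.14). Hyou1 (-1.10 ± 0.26), Manf (-1.05 ± 0.28), Dnajb11 (-0.68 ± 0.18), Herpud1 (-0.62 ± 0.18) and Calr (-0.61 ± 0.19) complete the 10, and all are chaperones, their helpers or parts of ER-associated degradation. Calr lost its call without any 1 of AL male replicates 3 and 4 and CR male replicates 1, 3 and 4.

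The sensors and transcription factors of the response were not called, among them Ern1 (0.34 ± 0.24, adjusted p = 0.363), Atf6 (0.27 ± 0.13, adjusted p = 0.173), Eif2ak3 (0.09 ± 0.21, adjusted p = 0.813) and Xbp1 (0.16 ± 0.15, adjusted p = 0.519). In females the log2 fold change of Hspa5 was 0.06 ± 0.21, of Creld2 0.19 ± 0.32 and of Sdf2l1 -0.08 ± 0.33. The difference between the sexes did not pass for any of them (adjusted p = 0.355, 0.147 and 0.306). For Creld2, AL females had 491 ± 163 (SD, n = 5) and CR females 611 ± 399 (n = 6).

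**Figure D4:**
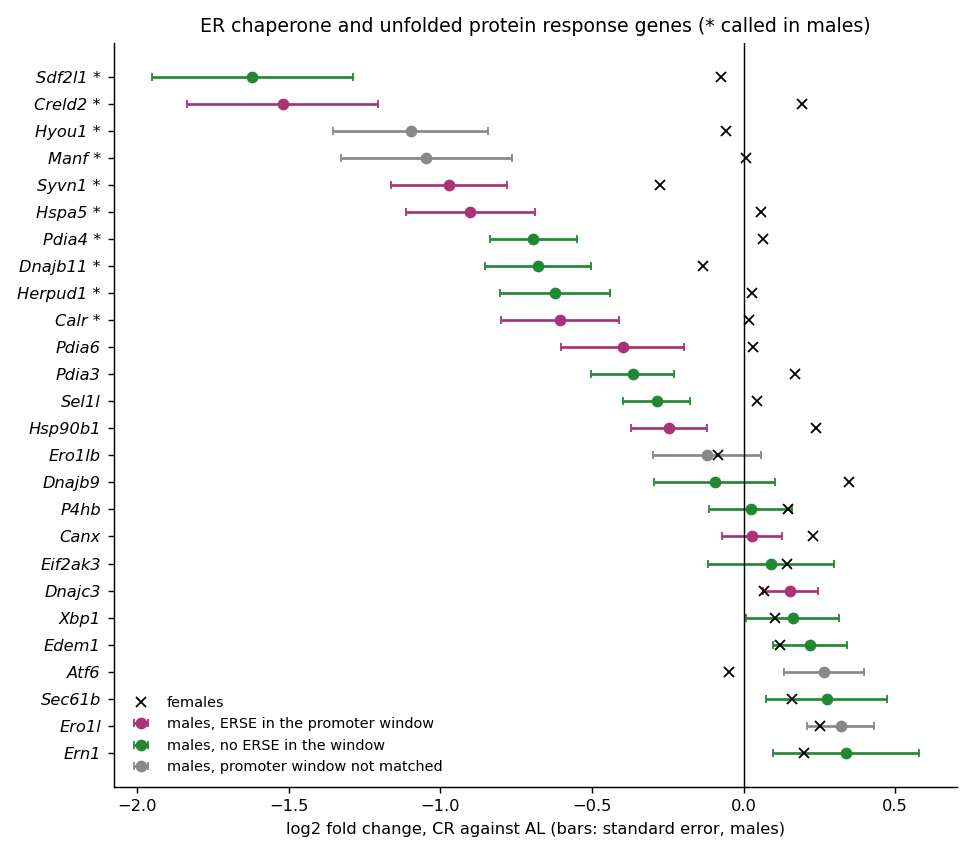
Log2 fold change with CR of 26 ER chaperone and unfolded protein response genes, with circles and standard error bars for males, coloured by whether the promoter window holds an ER stress element (ERSE), and crosses for females; asterisks mark the 10 genes called in males. The called genes lie between -1.62 and -0.61 in males, and the female crosses lie between -0.28 and 0.35.

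Of the 21 members with a promoter window 8 hold the ER stress element (ERSE), the site through which ATF6 and XBP1 act, against 0.137% of all genes. The motif is CCAAT, 9 bases of any kind, then CCACG, on either strand, and it was chosen after the values were seen. It is present in 4 of the 8 called members with a window and in 4 of the 13 that were not called. The median log2 fold change was -0.50 with the motif and -0.10 without it, a difference that was not tested. Whether the motif had a part in the fall was not tested either. The first 4 sequences below belong to genes that fell, and Canx and Dnajc3 (0.03 ± 0.10 and 0.15 ± 0.09) are shown as members with the same motif that were not called.
Syvn1 (chr19:6046396-6046575, forward strand): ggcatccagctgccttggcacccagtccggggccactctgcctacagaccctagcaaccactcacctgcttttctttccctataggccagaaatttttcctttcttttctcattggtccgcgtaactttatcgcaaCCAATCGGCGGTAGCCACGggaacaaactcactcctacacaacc
Creld2 (chr15:88819466-88819645, forward strand): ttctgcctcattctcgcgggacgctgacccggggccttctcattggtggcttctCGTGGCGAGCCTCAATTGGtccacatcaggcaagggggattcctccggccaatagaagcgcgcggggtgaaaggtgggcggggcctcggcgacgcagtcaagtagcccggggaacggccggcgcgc
Hspa5 (chr2:34771910-34772089, forward strand): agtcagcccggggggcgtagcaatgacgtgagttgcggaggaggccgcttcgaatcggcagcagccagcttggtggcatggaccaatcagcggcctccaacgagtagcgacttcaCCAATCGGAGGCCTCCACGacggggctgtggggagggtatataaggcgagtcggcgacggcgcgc
Calr (chr8:84846932-84847111, reverse strand): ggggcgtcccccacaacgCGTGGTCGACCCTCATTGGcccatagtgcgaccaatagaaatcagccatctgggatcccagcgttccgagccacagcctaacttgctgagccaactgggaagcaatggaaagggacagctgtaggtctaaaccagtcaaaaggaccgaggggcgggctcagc
Canx (chr11:50325674-50325853, reverse strand): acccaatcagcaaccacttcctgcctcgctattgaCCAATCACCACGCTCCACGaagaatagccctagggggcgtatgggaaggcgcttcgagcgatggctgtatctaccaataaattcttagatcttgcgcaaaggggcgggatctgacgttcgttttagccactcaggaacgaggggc
Dnajc3 (chr14:118937752-118937931, forward strand): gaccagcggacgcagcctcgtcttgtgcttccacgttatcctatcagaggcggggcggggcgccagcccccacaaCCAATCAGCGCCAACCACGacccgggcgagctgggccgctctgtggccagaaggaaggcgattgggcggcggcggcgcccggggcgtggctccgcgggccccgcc
Capitals mark the ERSE, which reads in the reverse direction in Creld2 and Calr and lies closest to the start in Syvn1 among these 6. Pdia6 (-0.40 ± 0.20) also has it, and Hsp90b1, which carries 2 of them, was not called (-0.25 ± 0.13, adjusted p = 0.184).

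Few cytosolic chaperones were called. Of 27 heat shock genes 3 rose (11.1%, near the 9.9% called over all genes) and none fell, with a median log2 fold change of 0.35. Hspa8, the constitutive HSC70, rose from 26999–45335 (median 34339) to 67360.1, 40503, 55121, 63123 and 49692 (0.63 ± 0.16, adjusted p = 0.0104). The inducible HSP70 gene Hspa1b (1.09 ± 0.38, adjusted p = 0.0471) and Hspa4l (0.71 ± 0.24, adjusted p = 0.0471) lay close to the threshold, overlapped between the groups and lost their calls without any 1 of 8 and 10 of the 11 male libraries. Hspa8 lost its call without AL replicate 6, CR replicate 1 or CR replicate 4. The heat shock unit pair GAANNTTC was present in 14 of 21 members with a window, against 9.04% of all genes, and 1 of the 14, Hspa1b, was called.

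Of 22 genes of the integrated stress response 4 rose and 2 fell (27.3% called, against 9.9% over all genes). Trib3, a pseudokinase induced by ATF4, fell from 200.1–629 (median 339.9) to 89.7, 97.7, 151, 155 and 155 (-1.47 ± 0.32, adjusted p = 0.00245). Ddit3, the CHOP gene (-0.33 ± 0.22, adjusted p = 0.339), and the fasting hormone Fgf21 (-0.17 ± 0.52, adjusted p = 0.866) were not called.

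Genes of the secreted complement and coagulation proteins were called at 14.3%, against 9.9% over all genes. Of 49 genes 7 fell and none rose. The median log2 fold change was -0.09, and 20 genes had a positive one. C6 and C9, both subunits of the membrane attack complex, fell. C6, which is also on the male-biased list, had 4613–8669.6 (median 6302) normalised counts in AL and 1939, 655, 1176, 1933 and 3177 in CR males (-2.04 ± 0.28, adjusted p = 2.91e-05). C9 had 10349–24036 (median 18523) and 6798, 4219, 6657, 8839 and 10131, where CR male replicate 5 came close to the lowest AL male (-1.28 ± 0.21, adjusted p = 0.00016). F11, coagulation factor XI, fell 2.47-fold (-1.30 ± 0.21, adjusted p = 0.000142), and Serpinf2, the plasmin inhibitor, 1.64-fold (-0.71 ± 0.14).

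Of 43 interferon-stimulated genes 9 (20.9%) fell and none rose, with a median log2 fold change of -0.16. The AL libraries were not of one kind in this list, since its median log2 difference from the AL male mean was -0.51 in AL male replicate 1 and -0.43 in replicate 4, below the -0.39 to -0.05 of the CR males. Oasl1, an antiviral oligoadenylate synthetase-like protein, had 257–493 (median 384) in AL and 152, 224, 134, 126 and 149.9 in CR males (-1.23 ± 0.22, adjusted p = 0.000534). Cmpk2, a mitochondrial nucleotide kinase, had 124–277 (median 191) and 67.3, 80.4, 70.6, 92.4 and 93.2 (-1.21 ± 0.22, adjusted p = 0.000626). Tap1, which loads peptides for MHC class I (-0.73 ± 0.13), and Ifi47, an interferon-inducible GTPase (-0.96 ± 0.20), fell without overlap as well. Without AL male replicates 3 and 6, or without AL replicate 6 and CR replicate 5, 5 members were called in place of 9. In females, Oasl1 changed by -0.45 ± 0.22 and Cmpk2 by -0.65 ± 0.22, and neither passed. No MHC class II gene was called of 16 tested.

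Of 30 acute phase genes 1 rose and 2 fell, 10% against 9.9% over all genes. Saa1 (-1.02 ± 0.45, adjusted p = 0.119), Saa2 (-0.41 ± 0.39, adjusted p = 0.514), Lcn2 (-0.36 ± 0.49, adjusted p = 0.664) and Orm2 (0.87 ± 0.31, adjusted p = 0.0545), all induced by inflammation, did not pass. Orm2 was called under 9 of the 26 alternatives, among them edgeR, DESeq2 and the fits without AL replicate 3, AL replicate 4, CR replicate 2 or CR replicate 5. Hamp, the iron hormone hepcidin (-0.70 ± 0.57, adjusted p = 0.434), and the metal-binding Mt1 (-0.42 ± 0.44, adjusted p = 0.57) and Mt2 (-1.09 ± 0.54, adjusted p = 0.171) were not called, and Hamp ranged over 5936–34052 in AL and 4128–28016 in CR males. Of 27 genes of metal and iron handling 2 rose and 1 fell (11.1%).

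Of 49 genes of amino acid breakdown and the urea cycle 6 fell (12.2%) and none rose. In the glycine cleavage system the P protein gene Gldc fell from 4029.8–6581 (median 5677) to 1463, 2754, 2129, 1769 and 1263 (-1.55 ± 0.24, adjusted p = 0.000126) and the T protein gene Amt from 1093–1350.3 (median 1196) to 609.4, 759, 531, 604 and 641 (-0.96 ± 0.11, adjusted p = 2.81e-06). Agxt, which turns glyoxylate into glycine, fell 2.06-fold (-1.05 ± 0.19), and Kynu, kynureninase of tryptophan breakdown, 1.55-fold (-0.63 ± 0.11).

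Hormone-binding and secreted factors gave 4 rises and 1 fall among 38 genes (13.2%, near the 9.9% over all genes). Serpina6, which encodes corticosteroid-binding globulin, had 4802–10647 (median 7381) in AL males and 23692, 29899, 29489.8, 28723 and 25157 in CR males (1.90 ± 0.20, adjusted p = 9.98e-07). Each CR male exceeded the highest AL male more than 2-fold, and females rose too (1.39 ± 0.20, adjusted p = 6.62e-05). Serpina7, thyroxine-binding globulin, rose from 361–1119 to 2344, 660.3, 1638, 1768 and 2665, but CR male replicate 2 lay inside the AL range (1.07 ± 0.33, adjusted p = 0.0263) and the call was lost without AL replicate 4 or any 1 of CR replicates 1, 3, 4 and 5.

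Fst, the activin antagonist follistatin, rose from 35.3–113 to 135–456 (1.95 ± 0.37), and Enho, the secreted peptide adropin, fell from 94.9–363 to 41.2–78.0 (-1.69 ± 0.43, adjusted p = 0.00922). Of 20 glucocorticoid response genes 10% were called, as over all genes (9.9%). Serpina6 was the 1 that rose, and Tsc22d3, the glucocorticoid-induced GILZ, the 1 that fell, from 3834–7216 (median 4837) to 2756, 1945, 2834, 1537 and 2802 (-1.13 ± 0.25, adjusted p = 0.00328). Fkbp5, another standard target, gave 0.32 ± 0.29 (adjusted p = 0.491).

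The remaining genes named for the size of their rise were Elovl6 (3.59 ± 0.54) and Fasn (3.07 ± 0.51) of fatty acid synthesis, both highest in CR male replicate 2, Ppp1r3g (3.37 ± 0.72), a glycogen-targeting subunit of protein phosphatase 1 that had 48.0–269 (median 114) in AL and 1869, 951, 869, 1615 and 934 in CR males, and Chrna4 (3.28 ± 0.66), a nicotinic receptor subunit.

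Of 44 cell cycle genes 3 rose and 1, Cdkn1a, fell (9.09%, below the 9.9% over all genes). The log2 fold change was positive for 33 of them, with a median of 0.42. The median log2 difference of the list from the AL male mean was 0.36, -0.10, 0.50, 0.65 and 0.35 in CR male replicates 1 to 5. It lay between -0.25 and 0.11 in the AL males. Ccne1, cyclin E1, had 8.63–18.5 (median 16.6) in AL males and 97.5, 18.3, 82.8, 72.3 and 131 in CR males, where replicate 2 stayed within the AL range (2.12 ± 0.38, adjusted p = 0.000426). Gadd45a (1.92 ± 0.44) and the replication helicase subunit Mcm6 (0.72 ± 0.22, adjusted p = 0.0286) rose, Mcm6 only while AL replicates 5 and 6 and CR replicates 2, 3 and 4 were all kept, and the proliferation marker Mki67 did not pass (0.84 ± 0.46, adjusted p = 0.222), except without CR replicate 2, without CR replicates 2 and 5 and by DESeq2.

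Several lists lay at or below the background of 9.9%. None of 81 cytosolic ribosomal protein genes and none of 37 proteasome genes was called, and 1 of 38 matrix genes was, without Col1a1 (-0.07 ± 0.39, adjusted p = 0.93). Of 26 pericentral genes 1 fell, and Glul, the glutamine synthetase of the last layer around the central vein, gave 0.08 ± 0.17 (adjusted p = 0.798). Of 41 autophagy and lysosome genes 2 rose and 1 fell. Near the background were the lipoprotein and lipid droplet genes, of which 3 of 41 rose and 2 fell (12.2%), and the insulin and FoxO genes, of which 2 of 22 rose and 1 fell (13.6%). Of 24 periportal genes 1 rose and 5 fell (25%), and of 17 Serpina genes 2 rose and 4 fell (35.3%). The lipid droplet genes Plin2 (-0.37 ± 0.19, adjusted p = 0.195) and Cidec (-0.12 ± 0.34, adjusted p = 0.859) were not called, and Cidea and the interferon-stimulated Isg15 were too low to be tested.

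Few markers of other liver cells were called. No gene was called of 12 for Kupffer cells, whose sum ranged from 13324 to 21134 in AL males and 11741 to 18084 in CR males, of 12 for endothelium (10216 to 15027 and 11034 to 16886) or of 12 for stellate cells (11083 to 15929 and 10819.8 to 15120.2). Of 8 cholangiocyte genes 2 rose, Krt7 and Prom1, and the sums overlapped (1210.3 to 1784 and 1174 to 1640.1). Cd4 was the 1 of 6 T and NK cell genes that fell, and Alas2 and Car1 the 2 of 8 erythroid genes. Car3, which hepatocytes of male mice also express, was the 1 of 4 adipocyte genes that fell, and the adipocyte sum, over 8 genes, lay at 52519 to 82686 in AL males and 9485 to 45605 in CR males, with no overlap. None was called of 6 genes for B cells, 3 for neutrophils, 12 for skeletal muscle, 8 for keratinised epithelium and 6 for gallbladder and intestine. The part of other cells in the results above was not tested.

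**Figure D5:**
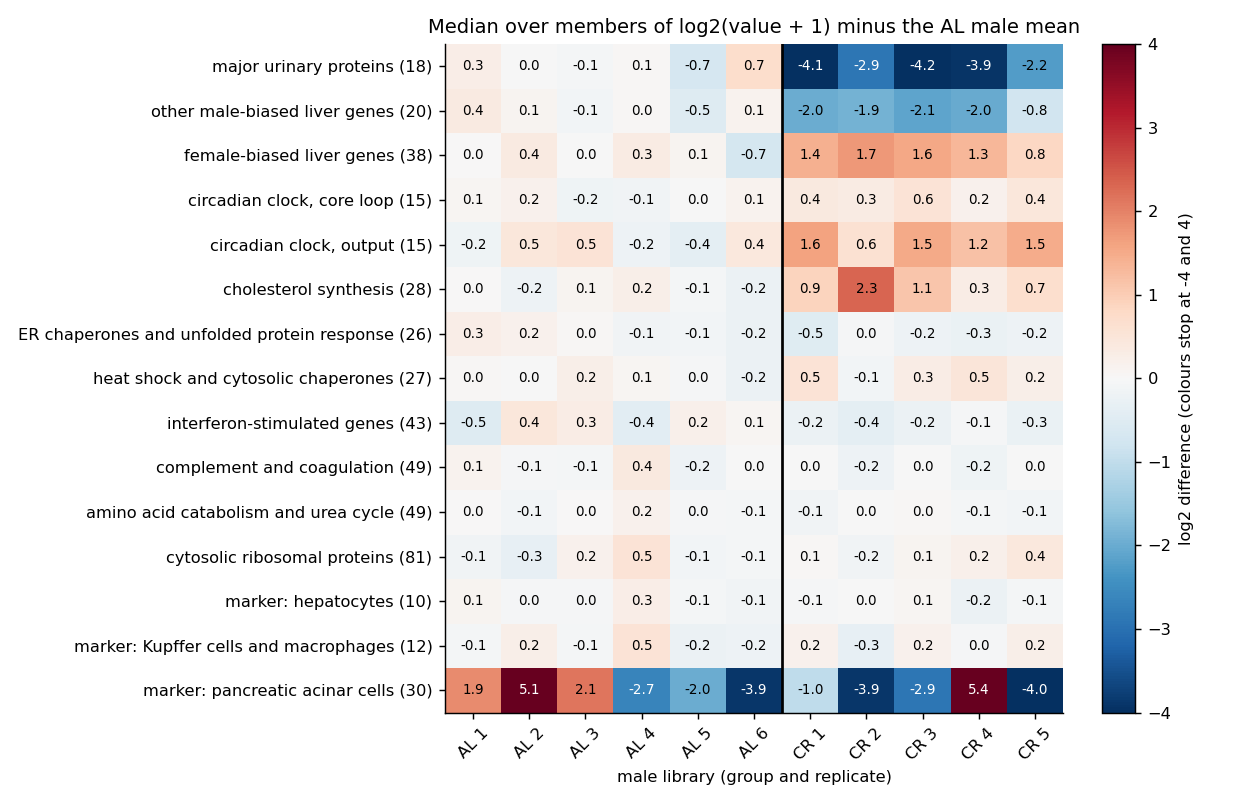
For each male library (columns) and gene list (rows, number of genes in brackets), the median over members of log2(value + 1) minus the AL male mean. CR male replicate 5 shows the smallest fall of MUP (-2.2) and other male-biased genes (-0.8), CR male replicate 2 the largest rise of cholesterol synthesis (2.3), and pancreatic acinar genes range from -4.0 to 5.4 across libraries of both groups.

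The plot of lists by library shows how evenly each change was carried. The median difference of MUP genes from the AL mean lay between -4.15 and -2.90 in CR male replicates 1 to 4 and at -2.23 in replicate 5, and that of the other male-biased genes between -2.11 and -1.90 against -0.78. Female-biased genes lay between 1.33 and 1.73 in replicates 1 to 4 and at 0.82 in replicate 5. Cholesterol synthesis genes lay between 0.31 and 1.12 in replicates 1, 3, 4 and 5 and at 2.32 in replicate 2. Pancreatic acinar genes were high in AL male replicate 2 and CR male replicate 4 alike, and with their mean as a covariate 97 of the 98 called genes named here stayed called, with Calr as the exception.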

How the data were processed

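Liver RNA of 22 wild-type C57BL/6NCrl mice was sequenced. Per the study's methods, the authors trimmed reads with Trim Galore, aligned them with STAR 2.7.10a to mm10 (GRCm38), assigned them to genes by featureCounts (Subread 1.5.2) and normalised the counts with DESeq2 1.36.0. Chromosome Y genes, Xist and genes of low total were removed, a step that the paper's methods text does not give. The deposited values are counts divided by DESeq2 size factors, a normalised signal called normalised count here. No strand setting for the counting is given in the sources used here, so overlapping genes and close paralogs can share reads. All values were whole multiples of 1 read per library within 0.01, which gave the reads counted.

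Values were transformed to log2(value + 1), and genes with a mean of at least 10 over 22 libraries were kept, 14035 of 16838. limma 3.58.1 in R 4.3.3 (trended empirical Bayes) was fitted to the 4 groups of 22 libraries, and the same fit gave the difference of the CR effect between the sexes. A fold change over 1.5 and a Benjamini-Hochberg adjusted p under 0.05 defined a call. The code was tested on simulated data. As alternatives, edgeR 4.0.16 (quasi-likelihood) and DESeq2 1.42.0 were run on the recovered counts of 21 libraries, leaving out AL female replicate 4, whose step is too near 1 to check.

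Named genes were the 12 largest non-overlapping calls in each direction, up to 4 called members of each list by adjusted p, a fixed set, and the 6 leading genes of the sex difference. Some of these genes are not reported here. The first part passed over 122 called genes with Gm, LOC or Rik symbols, 5 of them with larger changes. Members, lists and motifs were chosen with earlier results of these data known. Locations and promoters are from RefSeq (GRCm38.p6), and motif matches are descriptions. Normalised counts are not per length, so levels are not compared between genes. Replicates are separate mice.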

Additional observations from a re-analysis of the deposited data

Results flagged for a closer look

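The effect of CR differed between males and females in 15 of the genes named here, by the limma contrast of the 2 effects on the log2 scale (adjusted p below 0.05 over 14035 genes). The male effect was higher than the female effect by 6.62 for Cyp2b9, 4.19 for Cux2, 3.17 for Slc22a27, 2.51 for Fmo2, 2.36 for Cyp2c38, 2.20 for Cyp17a1, 1.69 for Slco1a4 and 1.40 for Trim24. The difference of male minus female effect was -5.51 for Pitx3, -4.74 for Mup-ps8, -3.71 for Obp2a and -2.53 for Selenbp2, and it was -5.11 for Sult2a3, -4.70 for Sult2a2 and -4.28 for Sult2a5. Pitx3 and Obp2a were near 0 in all females and the 3 Sult2a genes near 0 in CR males and low in AL males, so for these 5 genes a change of the same size could not be seen in that sex and the difference restates the change in the other. Pitx3 also overlaps Elovl3.

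Single libraries lay far from the rest of their group, by Dixon's ratio on log2(value + 1), in 16 of 272 tests of a gene in a male group (5.88%), and chance alone gives about 1 in 20. CR male replicate 5 was the highest of its group for Mup3 at 219964 and for Hsd3b5 at 3057 and the lowest for Fmo2 at 933. CR male replicate 2 was the lowest for Pitx3 at 0, for Por at 13543 and for Saa1 at 154.6. CR male replicate 1 was the highest for Sult2a5 at 1.95.

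AL male replicate 4 was the highest of its group for Cux2 at 130.4 and the lowest for Hsp90b1 at 9169 and Serpina7 at 361.4. AL male replicate 6 stood apart for Sdf2l1 at 263.4 and Fkbp5 at 653.5, AL male replicate 5 for Slco1a4 at 1323 and Ccne1 at 8.63, AL male replicate 3 for Cish at 1159 and AL male replicate 2 for Sult2a3 at 5.89.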

How the results depend on the processing

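Results were recomputed under 26 alternative settings, 2 of which (without AL male replicates 3 and 6, and without CR male replicates 2 and 5) were chosen after seeing the data. No direction reversed, and 90 of the 98 called genes named here were called under every setting in which they were tested. With a minimum mean of 50, Ccne1, Gadd45a, Obp2a and Slc51b were not tested. With no minimum fold change 2530 genes passed, 1175 higher and 1355 lower. Leaving out each male library in turn gave 1164 to 1446 calls, 558 to 707 of them higher and 604 to 765 lower, and 26 to 48 genes that differed between the sexes. Called members then ran from 14 to 16 for other male-biased genes, 16 to 22 for female-biased, 8 to 9 for core clock, 8 to 10 for clock output, 16 to 19 for cholesterol synthesis, 10 to 12 for bile acid, 24 to 31 for P450, 8 to 10 for ER chaperone, 6 to 7 for complement and 7 to 11 for interferon-stimulated genes, and stayed at 18 for MUPs. Without AL male replicates 3 and 6 the difference between the sexes passed in 18 genes and 5 interferon-stimulated genes were called. Without the 2 libraries named by a letter, 5 interferon-stimulated genes were called. edgeR called 1409 genes, 1310 of them shared with limma, and DESeq2 called 1513. Quantile and TMM scaling moved the median of all genes to 0.011 and -0.0088. At this depth and with 5 or 6 mice per group, genes of a few reads, such as the Sult2a genes in males, are limited by counting error.

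The replicate numbers carry no stated meaning, and same-numbered AL and CR males did not deviate together (r = 0.223, -0.260, -0.239, -0.244 and 0.0689 for replicates 1 to 5). With the replicate number as a block, 1303 genes were called and 19 differed between the sexes, against 34 without the block, Lonrf3, Pparg, Hspa1b and Mcm6 lost their calls, and Obp2a, Slc22a27, Sult2a3 and Sult2a5 lost those of the difference between the sexes.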
